A study of Mus musculus with 9 samples.

Results

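Interferon-stimulated genes are transcribed when a cell receives an interferon signal, and their products block viruses and bacteria at many steps. A fixed list of 45 such genes was followed in peritoneal macrophages of the mouse. The members were matched by symbol in GENCODE mouse release M21 to the 47729 gene identifiers of the deposited count files, and all 45 were found. Of these, 44 passed the filter on low counts and were tested; the exception was Ifit3b, which had 1 read over the monocyte-derived, 1 over the converted and 11 over the resident libraries.

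The 9 RNA-seq libraries came from sorted macrophages of 3 origins, with 3 libraries each. All mice carried the same alleles, Cx3cr1CreERT2-IRES-EYFP/+ Rosa26-stopfl-tdTomato/+, in which the Cx3cr1 gene drives a tamoxifen-dependent Cre and a yellow fluorescent protein, and Cre switches on a red reporter. All mice also received IL-4 (5 µg) bound to an antibody against it (25 µg) into the peritoneum, starting 4 days before harvest and repeated every other day, so no group is free of the IL-4 exposure that drives alternative activation. The monocyte-derived group was given 2 ml thioglycollate, an irritant that recruits blood monocytes, on day 0 and was harvested on day 4. The converted group had 2 ml thioglycollate and then lived on tamoxifen diet for 10 weeks. For the resident group the labels name no treatment beyond the IL-4 and antibody. No source used here gives the sort gates, the sex and age of the mice or any pooling of animals. No label ties the 3 libraries of a group to different animals; the p-values therefore reflect library-to-library spread, part of which may be technical.

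Type I interferons bind the receptor pair Ifnar1 and Ifnar2, and the kinases Jak1 and Tyk2 then activate Stat2. Together with Irf9 it acts in a complex that binds the interferon-stimulated response element, a short DNA motif in front of many target genes. Interferon gamma acts through Ifngr1, Ifngr2, Jak1 and Jak2, and its targets carry a different motif, the gamma-activated site. Macrophages keep many of these genes on at a low tonic level, and IL-4 acts through Stat6, whose motif has 1 base more between the same ends.

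The response element is the sequence that these genes are known to share, so it was searched in the 250 bases before each start site listed by RefSeq (GRCm38.p6). The letters searched were GAAA, any 2 bases and GAAA again, on both strands, with overlapping matches counted separately. A promoter window was listed for 33 of the 45 members, and 19 of them, 57.6%, held a match. Over all 27025 genes with a window, 936 or 3.46% did. The gamma-activated letters, TTC and GAA with 3 bases between, were in 7 members, 21.2% against 8.13% of all genes, the Stat6 type with 4 bases between in 7, 21.2% against 6.76%, and a TATAAA box in 4, 12.1% against 14.3%. A match is a description of these letters and not a measured binding site. The members with no window listed were Oas2, Dhx58, Zbp1, Usp18, Parp9, Parp14, Mx1, Mx2, Rtp4, Gbp9, Iigp1 and Ifi204.

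Stretches around the matches are shown for a selection of the members with a match. Others, such as Oas3, Rsad2, Slfn8 and Ifi203, are left out, and a match inside an annotated exon was not printed. Each stretch is from the gene's own strand, 5′ to 3′, with the matched letters in capitals. Where the match is on the opposite strand, the capitals read as the reverse complement.
Oas1a: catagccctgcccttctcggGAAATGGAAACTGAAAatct
Oas1g: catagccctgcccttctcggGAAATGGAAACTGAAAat
Ifit1: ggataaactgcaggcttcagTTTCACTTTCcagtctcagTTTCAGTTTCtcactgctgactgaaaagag
Ifit3: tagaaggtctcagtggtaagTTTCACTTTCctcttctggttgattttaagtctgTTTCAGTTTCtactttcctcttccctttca
Isg15: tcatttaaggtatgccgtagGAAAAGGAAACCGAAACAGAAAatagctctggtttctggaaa
Stat2: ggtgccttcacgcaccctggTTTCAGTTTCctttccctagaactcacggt
Bst2: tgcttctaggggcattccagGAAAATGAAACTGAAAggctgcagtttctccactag
Gbp3: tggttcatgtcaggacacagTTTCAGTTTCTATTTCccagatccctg
Gbp7: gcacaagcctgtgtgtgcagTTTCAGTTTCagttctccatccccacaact
Slfn5: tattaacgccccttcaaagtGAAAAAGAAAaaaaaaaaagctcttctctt

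Isg15 held 3 overlapping matches in a row (chr4:156200855-156200916, minus strand). Oas1a (chr5:120907526-120907565), Oas1g (chr5:120887614-120887651), Bst2 (chr8:71537567-71537622), all on the minus strand, and Gbp3 (chr3:142559979-142560025, plus strand) held 2 overlapping matches each. The pair in Ifit1 (chr19:34640765-34640833) and in Ifit3 (chr19:34583353-34583436), both on the plus strand, stood apart, with the same letters in the capitals. The 84 bases printed for Ifit3 recur letter for letter in front of Ifit3b (chr19:34607749-34607832). At the best alignment without gaps, the windows of these genes were 86.2% identical over 218 bases. Gbp7 (chr3:142530263-142530312), Stat2 (chr10:128270256-128270305) and Slfn5 (chr11:82951927-82951976), on the plus strand, held 1 match each.

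The libraries held 15220884 to 20496258 reads in genes. Summed over 7 macrophage markers (Adgre1, Csf1r, Cd68, Itgam, Mertk, Fcgr1 and Lyz2) the level was 3770 to 7776 CPM in the 9 libraries, CPM being counts scaled to a common library size, with the sizes set by the trimmed mean of M-values (TMM). Summed over 6 markers of large peritoneal macrophages (Gata6, Timd4, Icam2, Prg4, Selp and Cd5l) it was 46.6 to 114.5 CPM in monocyte-derived, 4056 to 5236 in converted and 4302 to 4506 in the resident libraries. Xist was at 41.0 to 101.1 CPM in the monocyte-derived libraries, with 0 reads in converted and 2 in the resident ones, while Ddx3y of the Y chromosome had 0 reads in monocyte-derived libraries and 84.6 to 96.1 CPM in the others. Sex therefore cannot be told apart from origin in either comparison with monocyte-derived cells. In converted against monocyte-derived cells the same holds for time since thioglycollate and for the tamoxifen diet, named for the converted group alone. In resident against monocyte-derived cells it holds for thioglycollate, which the labels do not name for the resident group. Between converted and resident cells, the labels name thioglycollate and tamoxifen diet for the converted group alone. Neither treatment can be told apart from origin in that comparison.

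The interferon-stimulated genes were lowest in monocyte-derived, higher in converted and highest in resident macrophages. Their summed level was 703.7, 788.3 and 739.6 CPM in the monocyte-derived libraries, 1786, 2119 and 1488 in the converted and 2943, 2419 and 2781 in the resident ones, with no overlap between the groups. Group means stood in this order for 40 of the 44 tested members, the others being Gbp2, Gbp3, Stat2 and Usp18; 19.4% of all genes tested had means in this order. In sorted bulk samples, fewer cells that express a gene and less RNA per cell cannot be told apart.

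**Figure D1:**
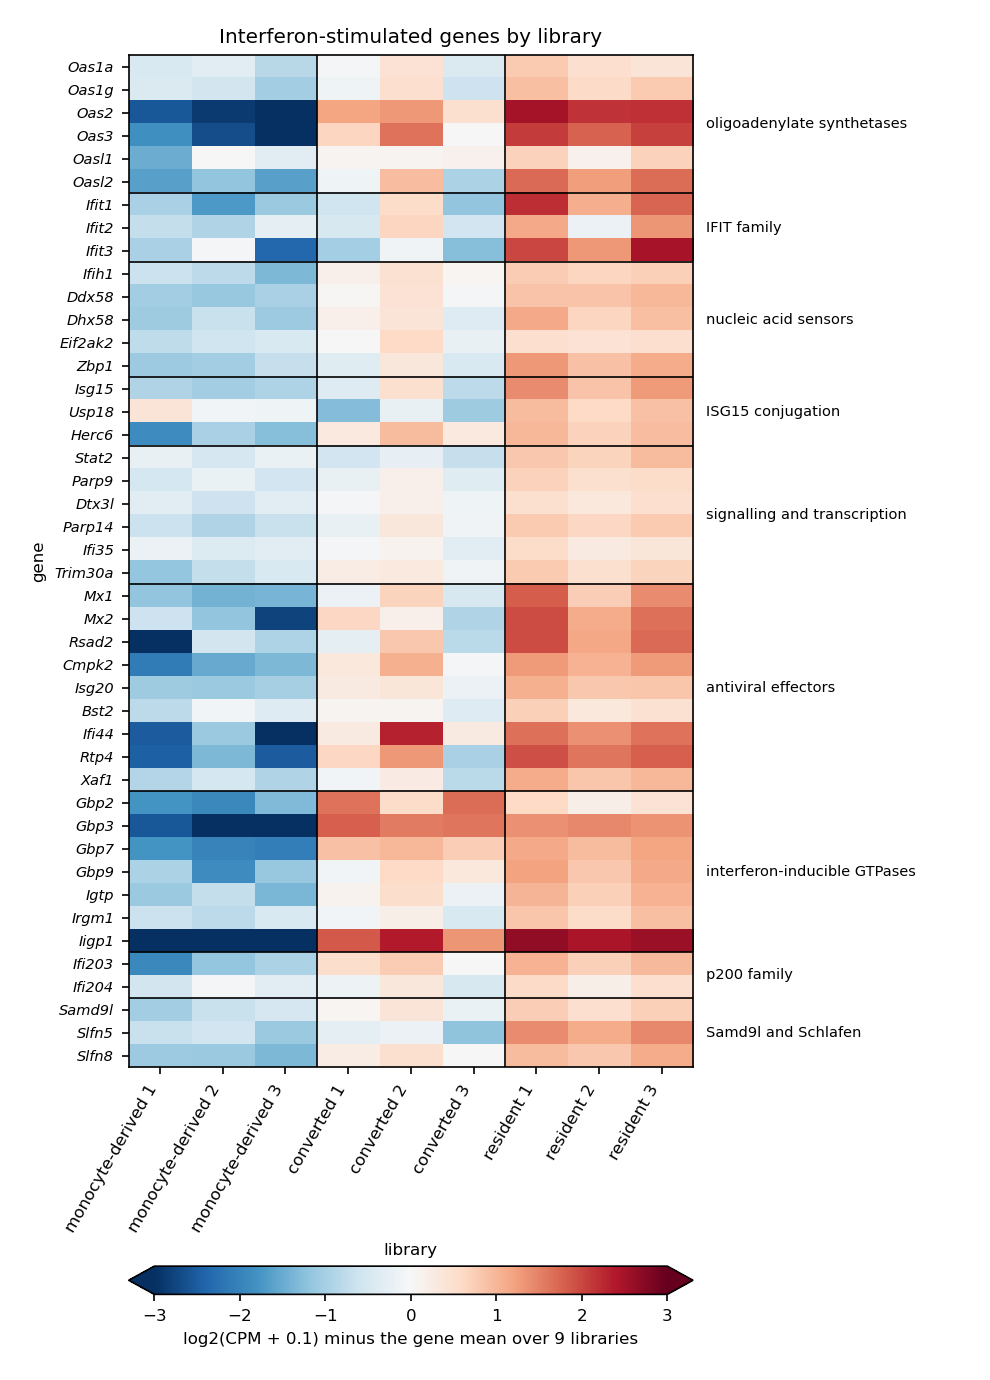
Heat map of the 44 tested genes (rows, grouped by role) in the 9 libraries (columns), with colour showing log2(CPM + 0.1) minus the gene's mean over the libraries, on a scale that saturates at -3 and 3. Each resident column is above every monocyte-derived column in all 44 rows, and within the converted columns library 2 is the highest for 40 of 44 genes.

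Converted against monocyte-derived macrophages, 29 of 44 members rose, 1 (Usp18) fell and 14 did not pass, by edgeR's quasi-likelihood test with Benjamini-Hochberg adjustment at an adjusted p under 0.05. Of all 13223 genes tested, 25.8% rose and 24.9% fell in this comparison, 50.7% were called in either direction, and 13.7% rose at least 2-fold, as 20 members did. The median log2 change was 1.03 over the members and -0.01 over all genes tested. All 3 converted libraries lay above all 3 monocyte-derived ones for 29 members, against 28.6% of all genes, and below them for 1, against 27.7%. The calls of Irgm1, Isg15, Usp18 and Xaf1 were lost with 1 library left out, as given with each gene.

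Resident against monocyte-derived macrophages, all 44 tested members rose (background 25.7%; 50.7% in either direction) and 0 fell (24.9%), with 0 lower at an unadjusted p under 0.05 and by DESeq2 or limma-voom. At least 2-fold higher were 38 (15.0% of all genes), and the libraries did not overlap for any of the 44 (30.6%). The median log2 change was 2.02, against 0.0 over all genes. Both of these comparisons use the same monocyte-derived libraries, so their values are given side by side and are not independent.

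Converted against resident macrophages, 18 of 44 members were lower, against 4.26% of all genes tested (6.07% called in either direction), and 26 did not pass. None was higher by edgeR (background 1.82%); 1 was at an unadjusted p under 0.05 (10.1% of all genes), DESeq2 called 1 (Gbp2) and limma-voom 0. At least 2-fold lower were 10 (3.29% of all genes), and the median log2 difference was -0.75, against 0.01 over all genes. All converted libraries lay below all resident ones for 33 members (17.7% of all genes) and above them for 1, Gbp3 (19.6%). The count of 18 rests on few libraries, and the counts that follow are of calls in either direction. All of these calls were lower, apart from Gbp3 without monocyte-derived library 1 and Gbp2 without converted library 2, which were called higher. The count was 4, 7, 4 and 3 without converted library 1, converted library 3, resident library 1 and resident library 3. The share of all genes called fell as well in those fits, to 2.65%, 2.59%, 2.16% and 1.81% from 6.07%. The count of members was 27 without monocyte-derived library 1, where 12% of all genes were called. With only converted 2 left out it was 24 (3.92% of all genes) and with only resident 2 left out 12 (2.94%). The calls of Slfn5, Stat2 and Usp18 held with each of the 9 libraries left out in turn, and the other 15 were lost with at least 1 of them.

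**Figure D2:**
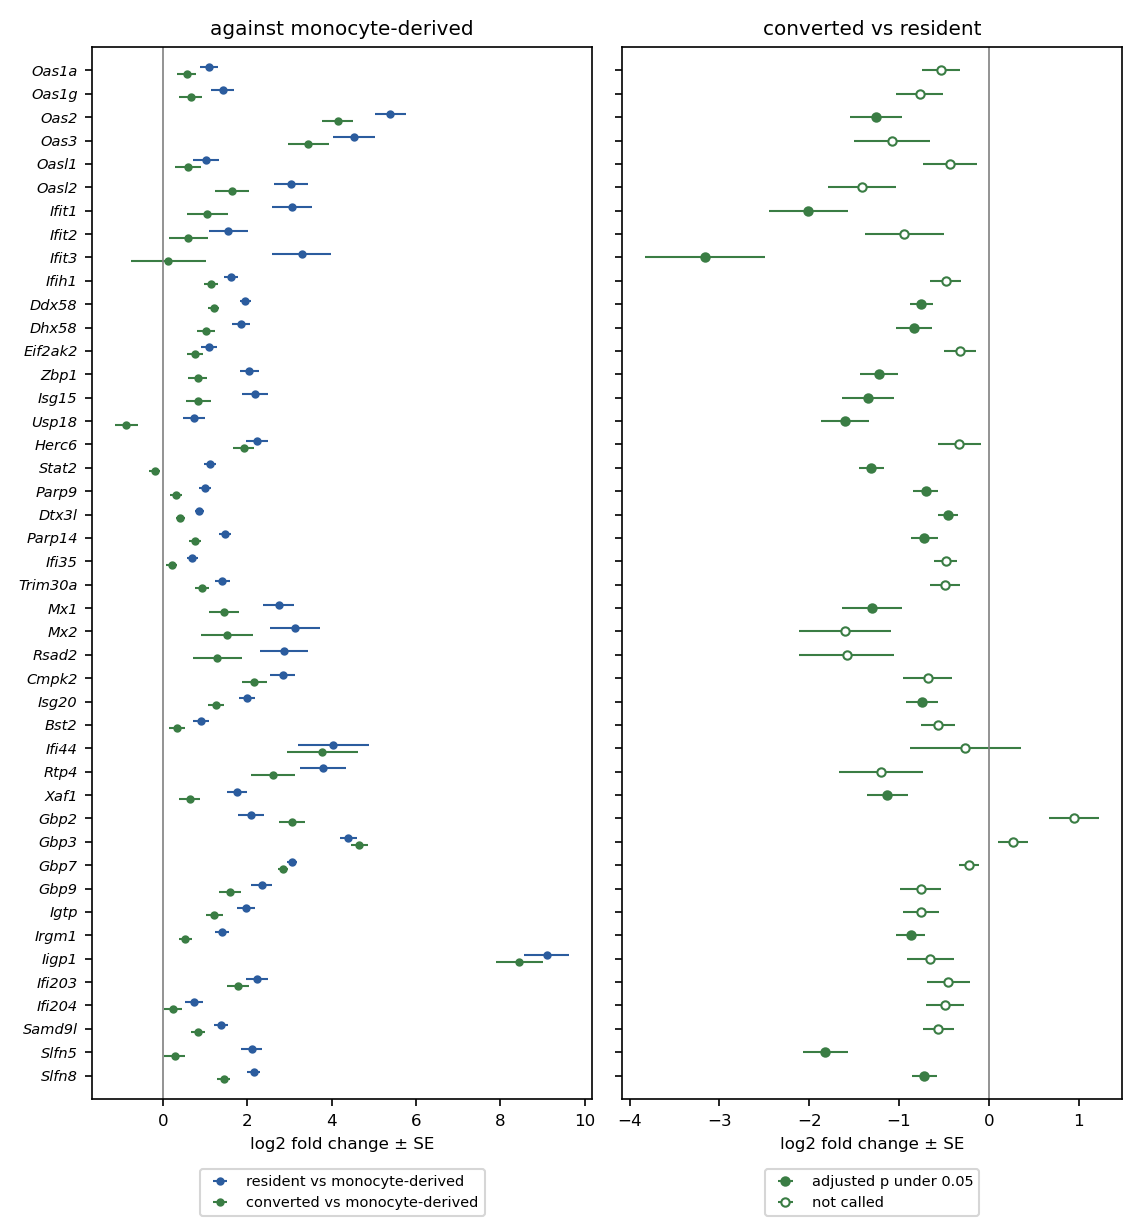
Log2 fold change of each tested gene with its standard error from the edgeR fit: on the left, resident (blue) and converted (green) against monocyte-derived libraries; on the right, converted against resident libraries, filled where the adjusted p was under 0.05. On the left every blue point is above 0 and Usp18 and Stat2 are the green points below 0; on the right the 18 filled points are all below 0, and the fitted fold of Iigp1 rests on 1 read in the monocyte-derived libraries.

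Within the groups, most members ranked the libraries alike. Converted library 2 was the highest of its group for 40 of 44 members (36.1% of all genes tested) and converted library 3 the lowest for 38 (32.4%). Among resident libraries, library 2 was the lowest for 41 (33.6%) and library 1 the highest for 31 (33.9%). These members share their libraries and are not independent, and the cause of the spread was not tested.

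Transcripts of B cells, which are abundant in the peritoneal cavity and respond to interferon themselves, moved with these groups. Summed over 12 B-cell markers, none of them at 0 reads in any group, the level was 17.3, 25.4 and 42.2 CPM in monocyte-derived, 86.1, 160.5 and 94.8 in converted and 771.4, 844.4 and 1021 in the resident libraries. Of these 12 markers, 8 were higher in converted and 11 in resident than in monocyte-derived cells, and 11 were lower in converted than in resident cells. In the converted group library 2 had the highest sum of both lists, while in the resident group library 1 had the highest sum of interferon-stimulated genes and the lowest of B-cell markers. With the B-cell sum as a covariate in the edgeR fit, 5 members were called in converted against monocyte-derived cells (Gbp2, Gbp3, Gbp7, Iigp1 and Oas2), 1 in resident against monocyte-derived (Gbp3) and 0 in converted against resident cells, where 2 were at an unadjusted p under 0.05. The median standard error of the members' log2 values was then 0.52, 1.19 and 0.72, in place of 0.24, 0.24 and 0.23, and over all genes tested the same fit called 14.7%, 0.461% and 0.0%. B-cell content therefore cannot be told apart from origin for most of these genes.

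**Figure D3:**
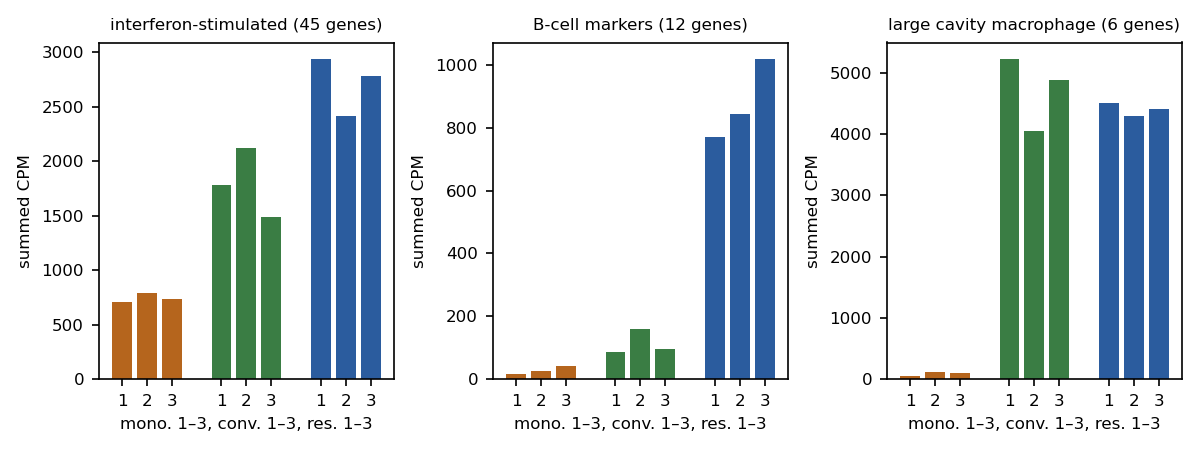
Summed CPM per library (bars from 0) of the interferon-stimulated genes, the 12 B-cell markers and the 6 markers of large cavity macrophages, in monocyte-derived (orange), converted (green) and resident (blue) libraries 1 to 3. The first sum rises over the 3 groups, the second is 771.4 to 1021 CPM in the resident libraries and at most 160.5 elsewhere, and the last is near its resident range of 4302 to 4506 in the converted libraries.

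Markers of other cell types were followed in the same way. Plasmacytoid dendritic cells, the specialised makers of type I interferon, had 6 markers that summed to 41.0 to 60.1 CPM in monocyte-derived, 33.0 to 40.1 in converted and 75.6 to 92.6 in the resident libraries. Summed levels of 8 dendritic cell markers were 24.7 to 92.1, 22.3 to 82.6 and 181.4 to 195.4 CPM, of 9 T-cell markers 1.97 to 10.4, 1.46 to 5.41 and 15.8 to 30.6, and of 7 NK-cell markers 18.6 to 107, 2.29 to 3.52 and 19.1 to 29.6. Neutrophil markers (7) summed to 58.3 to 102.2, 11 to 20.3 and 17.4 to 18.1 CPM, with S100a9 at 0 reads in converted and Retnlg at 0 in the resident libraries. Blood monocyte markers (4) summed to 593.8 to 1577, 250 to 307.2 and 250.5 to 287.1 CPM. Markers within a list did not all move with its sum. In resident against monocyte-derived cells, 1 of 7 tested dendritic cell markers was higher and 3 were lower. Of 6 plasmacytoid and of 4 monocyte markers, 2 were higher and 2 lower in each list. Of 7 tested T-cell markers 5 were higher and 0 lower, and of 5 tested NK-cell markers 0 and 2. Over all genes tested, 25.7% were higher and 24.9% lower. The part of these cell types in the values of the interferon-stimulated genes was not tested.

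Oligoadenylate synthetases make a small messenger from double-stranded RNA that switches on the RNA-cutting enzyme RNase L, and Oasl1 and Oasl2 are their relatives. Of the 6 members, 3 rose in converted cells (Oas2, Oas3 and Oasl2; median log2 change over the 6, 1.14) and all 6 in resident cells (median 2.23). Oas2 (ENSMUSG00000032690, GRCm38 chr5:120730333-120749853) was at 3.09, 2.43 and 0.78 CPM in monocyte-derived, 41.8, 45.8 and 25.8 in converted and 103.7, 82.5 and 84.7 in the resident libraries. The groups did not overlap, and its rise over monocyte-derived cells was the largest of the family. It was 17.6-fold higher in converted (log2 4.14 ± 0.37 SE, adjusted p = 1.62e-05) and 42.0-fold higher in resident cells (log2 5.39 ± 0.37, adjusted p = 3.62e-06) than in monocyte-derived ones. Against resident cells the converted ones were 2.39-fold lower (adjusted p = 0.0357), a call that was lost with any 1 converted or resident library left out (adjusted p = 0.0584 to 0.159) and with no filter on low counts (0.169).

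Its neighbour Oas3 was at 7.95, 4.45 and 2.14 CPM, then 44.9, 88.5 and 28.4, then 123.9, 98.7 and 118.5 in the same order of groups. It rose 10.9-fold and 23.1-fold against monocyte-derived cells (adjusted p = 0.000315 and 7.18e-05), while its converted value was not called against the resident one (log2 -1.08 ± 0.42, adjusted p = 0.183) although the libraries did not overlap. Oasl2 rose from 14.2, 19.3 and 14.2 CPM to 40.7, 83.8 and 22.8 in converted (3.09-fold, adjusted p = 0.00741; 0.0544 with no filter on low counts) and to 145.1, 105.5 and 141.2 in resident cells (8.21-fold, adjusted p = 0.000246). Oas1a, Oas1g and Oasl1 differed less between the groups. Oas1a had 50.9, 54.6 and 39.1 CPM in monocyte-derived, 67.5, 94.5 and 51.3 in converted and 119.4, 99.1 and 90.4 in the resident libraries, with converted values that overlapped both neighbours. It was 2.13-fold higher in resident than in monocyte-derived cells (adjusted p = 0.00231), and 1.47-fold higher in converted cells without passing (adjusted p = 0.0546; 0.033 by DESeq2 and 0.0116 without converted library 3). Oas1a and Oas1g lie side by side, and their promoter windows were 63.7% identical over 248 bases at the best alignment without gaps. They also share sequence within the transcripts. Of their 50-base stretches, 57.6% and 45.7% are not unique to them, so how the counting split their reads is uncertain. Summed, the pair had 68.6, 70.8 and 50.6 CPM in monocyte-derived, 89.5, 128.5 and 66.8 in converted and 163.9, 135.0 and 131.9 in the resident libraries. Oasl1 was 2.04-fold higher in resident cells (adjusted p = 0.0194), but did not pass without resident library 1 (0.0598) or 3 (0.0612) or with no filter on low counts (0.0938).

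IFIT proteins bind viral RNA that lacks the marks of host messages. None of the 3 tested members was called higher in converted than in monocyte-derived cells, with 0 at an unadjusted p under 0.05 and 0 by DESeq2 or limma-voom after adjustment, and all 3 rose in resident cells. Ifit1 (ENSMUSG00000034459, chr19:34640871-34650009) was at 1.71, 0.98 and 1.55 CPM in monocyte-derived, 2.24, 5.1 and 1.46 in converted and 16.4, 7.45 and 11.8 in the resident libraries. The resident libraries stood above the rest, and the others overlapped (2.07-fold higher in converted than in monocyte-derived cells without passing, adjusted p = 0.103; 0.0382 without converted library 3). Ifit1 was 8.36-fold higher in resident than in monocyte-derived cells (log2 3.06 ± 0.48, adjusted p = 0.000527) and 4.04-fold lower in converted than in resident cells (log2 -2.01 ± 0.44, adjusted p = 0.0291). Ifit3 reached 1.93, 1.15 and 2.74 CPM in the resident libraries, from 0.16, 0.4 and 0.0 in monocyte-derived and 0.15, 0.37 and 0.11 in converted ones. The difference between converted and resident cells, 8.97-fold (log2 -3.16 ± 0.67, adjusted p = 0.0248), had the largest size among the tested members, at a level of few reads. Ifit3 had 10 reads over the monocyte-derived and 12 over the converted libraries. It passed the filter on low counts through the resident libraries alone, so its rank is not independent of that filter. Both calls against resident cells were lost without converted library 1 or 3 or resident library 1 or 3, with adjusted p = 0.0848 to 0.129 for Ifit1 and 0.0978 to 0.13 for Ifit3. Ifit2 rose 2.92-fold in resident cells (adjusted p = 0.0172), a call lost without monocyte-derived library 2 (0.0538) or resident library 1 (0.0559) or 3 (0.0695). Of the 50-base stretches of Ifit3, 51.2% are not unique, mostly shared with Ifit3b, whose 11 reads in resident and 1 in monocyte-derived libraries give a ratio of 9.82 with a 95% exact interval of 1.43 to 422.7 that covers counting error only.

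Cytosolic sensors of foreign nucleic acid start the interferon response and are also induced by it. All 5 (Ddx58, Ifih1, Dhx58, Eif2ak2 and Zbp1) rose in converted cells, by a median log2 of 1.02, and all 5 in resident cells, by 1.85. Ddx58, which encodes the RNA sensor RIG-I (ENSMUSG00000040296, chr4:40203773-40239828), was at 17.6, 16.5 and 18.4 CPM in monocyte-derived, 36.8, 48.7 and 35.1 in converted and 65.0, 65.6 and 72.6 in the resident libraries. Its 3 groups did not overlap at either step. Ddx58 rose 2.3-fold in converted (adjusted p = 4.77e-05) and 3.87-fold in resident cells (adjusted p = 2.2e-06), and was 1.69-fold lower in converted than in resident cells (log2 -0.75 ± 0.13, adjusted p = 0.00883; 0.0558 without resident library 3). Zbp1, a sensor of left-handed nucleic acid that can start cell death, stepped from 25.3, 26.2 and 33.7 CPM to 42.5, 68.7 and 39.6 and then to 135.0, 99.5 and 118.1. It rose 1.77-fold in converted (adjusted p = 0.0103) and 4.14-fold in resident cells (adjusted p = 5.38e-05). Converted cells were 2.34-fold below resident ones (adjusted p = 0.0114), a call lost without converted library 1 (0.0526), resident library 1 (0.0521) or resident library 3 (0.0527). Dhx58, which encodes the RIG-I relative LGP2, was 1.77-fold lower in converted than in resident cells (adjusted p = 0.0435), but not without monocyte-derived library 3, converted library 1 or 3 or any 1 resident library (0.0514 to 0.187). Ifih1, the sensor MDA5, and Eif2ak2, the kinase PKR that stops translation, rose 2.2-fold and 1.69-fold in converted cells and 3.06-fold and 2.11-fold in resident cells. Neither was called between converted and resident cells by edgeR (log2 -0.48 ± 0.17 and -0.32 ± 0.18, adjusted p = 0.137 and 0.373), though Ifih1 was in a fit of both groups alone (0.0128) and without monocyte-derived library 3 (0.0409), and Eif2ak2 without converted library 2 (0.0382).

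Isg15 is a ubiquitin-like protein that is joined to other proteins, Herc6 is the ligase that joins it in the mouse, and Usp18 removes it and also blocks signalling at the Ifnar2 chain of the receptor. Their paths differed. Usp18 (ENSMUSG00000030107, chr6:121245906-121270917) was at 31.4, 22.5 and 21.6 CPM in monocyte-derived, 9.62, 20.3 and 11.4 in converted and 45.7, 35.9 and 43.7 in the resident libraries. The converted libraries were the lowest of the 9 and the resident ones the highest, and Usp18 was the only member that fell in converted cells. It was 1.83-fold lower than in monocyte-derived cells (log2 -0.87 ± 0.27, adjusted p = 0.0206) and 3.03-fold lower than in resident cells (log2 -1.6 ± 0.27, adjusted p = 0.00904). The first call was lost with monocyte-derived 1 (0.0631), converted 1 (0.068) or converted 3 (0.0754) left out and with no filter on low counts (0.0826), and the second held with each library left out (adjusted p up to 0.0482). Resident cells had 1.66-fold more Usp18 than monocyte-derived ones (adjusted p = 0.039), which was lost with monocyte-derived library 2 (0.109) or 3 (0.112) or resident library 1 (0.108) or 3 (0.0963) left out, and with no filter on low counts (0.106).

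Isg15 (ENSMUSG00000035692, chr4:156199424-156200818) had 5.39, 4.86 and 5.24 CPM in monocyte-derived, 7.73, 14.2 and 5.8 in converted and 27.2, 18.5 and 24.8 in the resident libraries. Resident cells were 4.54-fold above monocyte-derived ones (adjusted p = 0.000238) and converted cells 2.53-fold below resident ones (adjusted p = 0.0262; 0.073 to 0.121 without converted library 1 or 3 or resident library 1 or 3). The rise in converted cells, 1.79-fold (adjusted p = 0.0412), was lost without converted library 2 (0.165), the highest of its group. It was also lost without any 1 monocyte-derived library (0.0699 to 0.101) or resident library 1 (0.0533) or 3 (0.0584), by limma-voom (0.103), in a fit of both groups alone (0.0725) and with no filter on low counts (0.0538). Herc6 rose from 2.61, 5.03 and 4.01 CPM to 12.3, 19.2 and 12.2 in converted (3.76-fold, adjusted p = 0.000199) and 19.9, 16.0 and 19.1 in resident cells (4.73-fold, adjusted p = 7.33e-05). Converted and resident values of Herc6 overlapped (log2 difference -0.33 ± 0.24, adjusted p = 0.477).

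Among the 6 genes of signalling and transcription, 3 rose in converted cells (Dtx3l, Parp14 and Trim30a; median log2 of the 6, 0.35), all 6 rose in resident cells (median 1.06) and 4 were lower in converted than in resident cells. Stat2 (ENSMUSG00000040033, chr10:128270559-128292849), which carries the type I signal to DNA, was at 39.1, 32.1 and 39.9 CPM in monocyte-derived, 30.6, 38.2 and 28.0 in converted and 79.9, 72.7 and 88.3 in the resident libraries. Monocyte-derived and converted values overlapped and the resident libraries stood above both. Stat2 was 2.49-fold lower in converted than in resident cells (log2 -1.31 ± 0.14, adjusted p = 0.00111; at most 0.0107 with any 1 library left out), and its difference from monocyte-derived cells was not called (log2 -0.2 ± 0.14, adjusted p = 0.258). Parp9, a protein of the ADP-ribosyltransferase family, and the ubiquitin ligase Dtx3l form a complex. Their genes lie next to Parp14 on chromosome 16 (chr16:35832874-35972605 for all 3). Parp9 had 42.4, 52.6 and 41.1 CPM in monocyte-derived, 52.3, 67.8 and 47.1 in converted and 97.7, 85.5 and 89.0 in the resident libraries. It was called in resident against monocyte-derived (2.0-fold, adjusted p = 0.000307) and converted against resident cells (1.63-fold lower, adjusted p = 0.0206), but not in converted against monocyte-derived cells (adjusted p = 0.114; 0.0425 without monocyte-derived library 2 and 0.0493 without converted library 3). Dtx3l and Parp14 rose 1.33-fold and 1.69-fold in converted cells (adjusted p = 0.0114 and 0.00204), and were 1.37-fold and 1.64-fold lower than in resident cells (adjusted p = 0.0399 and 0.0207). Against resident cells, all 3 calls of this cluster were lost without converted library 1 or 3 or any 1 resident library (Parp9 0.0534 to 0.103, Dtx3l 0.069 to 0.173, Parp14 0.0514 to 0.098). Parp9 and Dtx3l overlap on opposite strands over 9.4% and 8% of their exon bases, and reads there cannot be told apart unless the counting used strand, which no source used here states. Trim30a, a brake on inflammatory signalling, and Ifi35 were also below their resident values in converted cells (log2 -0.49 ± 0.17 and -0.48 ± 0.13), but neither passed by edgeR (adjusted p = 0.132 and 0.056). Ifi35 did by DESeq2 (0.0192), limma-voom (0.0455), with no filter on low counts (0.0419), in a fit of both groups alone (0.0191) and without monocyte-derived library 1 (0.0303) or converted library 2 (0.044), and Trim30a in a fit of both groups alone (0.0169) and without monocyte-derived library 1 (0.0303).

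Direct antiviral effectors formed the largest group, with 9 members: 6 rose in converted cells (median log2 of the 9, 1.44), all 9 in resident cells (median 2.84), and 3 were lower in converted than in resident cells (Mx1, Isg20 and Xaf1). Rtp4 (ENSMUSG00000033355, chr16:23520291-23614222), a chaperone-like protein that restricts viruses, was at 7.04, 15 and 6.73 CPM in monocyte-derived, 59.4, 95.3 and 19.7 in converted and 147.8, 118.1 and 133.9 in the resident libraries. Converted library 3 lay near the monocyte-derived libraries and converted library 2 near the resident ones. Rtp4 rose 6.05-fold in converted (log2 2.6 ± 0.52, adjusted p = 0.00242) and 13.9-fold in resident cells (log2 3.79 ± 0.54, adjusted p = 0.00032), with no call between them (log2 -1.2 ± 0.47, adjusted p = 0.19). Ifi44 went from 0.16, 0.58 and 0.0 CPM to 1.69, 7.2 and 1.69 in converted and 4.51, 3.72 and 4.45 in resident cells, a rise of 13.7-fold and 16.4-fold (adjusted p = 0.0045 and 0.00306). Its converted library 2 was the highest of all 9.

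Mx1 and Mx2 are dynamin-like GTPases that trap viral particles. Mx1 (chr16:97447035-97462907) was at 3.68, 3.12 and 3.17 CPM in monocyte-derived, 7.48, 13.6 and 6.08 in converted and 30.0, 14.1 and 22.6 in the resident libraries. The rise was 2.71-fold in converted and 6.66-fold in resident cells (adjusted p = 0.00721 and 0.000164), and converted cells were 2.46-fold below resident ones (adjusted p = 0.0481). That last call was lost with monocyte-derived 2 or 3, converted 1 or 3, or resident 1 or 3 left out (0.062 to 0.203), in a fit of both groups alone (0.064) and with no filter on low counts (0.0983). Mx2, which GENCODE lists as a polymorphic pseudogene, had at most 0.64 CPM in monocyte-derived libraries and rose 8.75-fold in resident cells (adjusted p = 0.00148).

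Rsad2, which encodes viperin, and Cmpk2, a nucleotide kinase, lie together at chr12:26442746-26479837. Rsad2 had 0.96, 5.84 and 4.47 CPM in monocyte-derived, 7.08, 15.2 and 4.9 in converted and 33.6, 19.6 and 28.5 in the resident libraries, and rose in resident cells (7.31-fold, adjusted p = 0.00255), while in converted cells it was 2.44-fold higher without passing (adjusted p = 0.0907). Cmpk2 rose 4.48-fold in converted and 7.18-fold in resident cells (adjusted p = 0.000234 and 4.57e-05). Whether the changes of these neighbours differ was not tested. Isg20, an exonuclease, rose 2.39-fold and 3.99-fold (adjusted p = 0.00036 and 1.76e-05) and was 1.67-fold lower in converted than in resident cells (adjusted p = 0.0369), a call lost with any 1 converted or resident library left out (0.0516 to 0.177). Xaf1, an antagonist of an inhibitor of cell death, had 9.65, 12.3 and 9.52 CPM in monocyte-derived, 17.0, 21.3 and 10.2 in converted and 39.1, 31.7 and 35.9 in the resident libraries. Its rise in converted cells was at the threshold (1.54-fold, adjusted p = 0.0496), with overlapping libraries, and was lost without any 1 library other than monocyte-derived 2 and converted 3 (0.0638 to 0.196), by limma-voom (0.092), in a fit of both groups alone (0.0951), with no filter (0.0594) and with DESeq2 size factors (0.0504). Against resident cells Xaf1 was 2.2-fold lower in converted cells (adjusted p = 0.02; 0.0724 to 0.0952 without converted library 1 or resident library 1 or 3). Bst2, the membrane tether tetherin, was the highest of the members per exon length in monocyte-derived and in resident cells, at 56.7 and 106.4 CPM per kilobase. It rose 1.88-fold in resident cells (adjusted p = 0.00288) and was not called in converted cells (1.26-fold, adjusted p = 0.164; 0.0395 without monocyte-derived library 2).

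Interferon-inducible GTPases, which attack the vacuoles of intracellular bacteria and parasites, all rose in both converted and resident cells, as the sensors did (7 of 7; median log2 2.84 and 2.34). Gbp3 (ENSMUSG00000028268, chr3:142560026-142573209), a guanylate-binding protein, was at 16.8, 9.65 and 10.4 CPM in monocyte-derived, 342.9, 291.6 and 302 in converted and 256.4, 269.2 and 249.5 in the resident libraries. All 3 converted libraries lay above the resident ones, which held for none of the other members. Gbp3 rose 25.3-fold in converted (log2 4.66 ± 0.2, adjusted p = 1.11e-07) and 20.9-fold in resident cells (log2 4.39 ± 0.2, adjusted p = 1.72e-07), and the difference between them was not called (log2 0.27 ± 0.17, adjusted p = 0.399; 0.0452 in a fit of both groups alone and 0.0408 without monocyte-derived library 1). Per exon length Gbp3 went from 3.77 CPM per kilobase in monocyte-derived to 95.6 in converted cells, where it was the highest of the members, and 79.1 in resident cells.

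Gbp2 and Gbp7 lie within the same cluster (chr3:142530342-142638008). Gbp2 was at 10.5, 9.6 and 14.7 CPM in monocyte-derived, 114.2, 54.0 and 117.9 in converted and 56.2, 41.9 and 49.5 in the resident libraries. Converted library 2, the highest of its group for most members, was the lowest for Gbp2 and fell within the resident range. Gbp2 rose 8.25-fold in converted (adjusted p = 3.63e-05) and 4.26-fold in resident cells (adjusted p = 0.000334), and its higher converted value was not called against resident cells (log2 0.95 ± 0.28, adjusted p = 0.0802; 0.0118 by DESeq2 and 0.00672 without converted library 2). Gbp7 rose from 17.7, 15.2 and 14.5 CPM to 113.6, 123.8 and 103.2 and to 136.7, 118.5 and 141.2, or 7.18-fold and 8.36-fold (adjusted p = 8.35e-08 and 6.31e-08). Converted and resident values of Gbp7 overlapped (log2 difference -0.22 ± 0.11, adjusted p = 0.28). Gbp9, outside this cluster, rose 3.0-fold and 5.07-fold (adjusted p = 0.000544 and 5.08e-05).

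Of the immunity-related GTPases, Iigp1 had 1 read over the monocyte-derived libraries. It was at 8.67, 12.7 and 6.08 CPM in converted and 15.3, 13.2 and 14.6 in the resident libraries. From the reads, converted cells had 473.5 times and resident cells 740.1 times the monocyte-derived level, with 95% exact intervals of 84.6 to 18738 and 132.5 to 29268 for counting error. The edgeR fit gave folds of 349.7 and 549.9 (edgeR adjusted p = 1.66e-06 and 9.48e-07). Igtp rose 2.33-fold and 3.92-fold (adjusted p = 0.000924 and 4.6e-05). Irgm1, a regulator of the other immunity-related GTPases, had 30.5, 27.7 and 34.6 CPM in monocyte-derived, 45.1, 53.7 and 34.9 in converted and 85.1, 70.2 and 89.1 in the resident libraries. It rose 1.44-fold in converted cells (adjusted p = 0.0202), a call lost with monocyte-derived 2 (0.0623), converted 1 (0.0502) or converted 2 (0.0781) left out. By edgeR it was also the only member of the interferon-inducible GTPase group called lower in converted than in resident cells (1.83-fold, adjusted p = 0.0126). That call was lost without converted library 1 or resident library 1 or 3 (0.0534 to 0.0689). Igtp (edgeR adjusted p = 0.0612) was called lower as well by DESeq2 (0.0173) and limma-voom (0.0339), and so was Gbp9 (0.0981; 0.0352 and 0.0499).

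**Figure D4:**
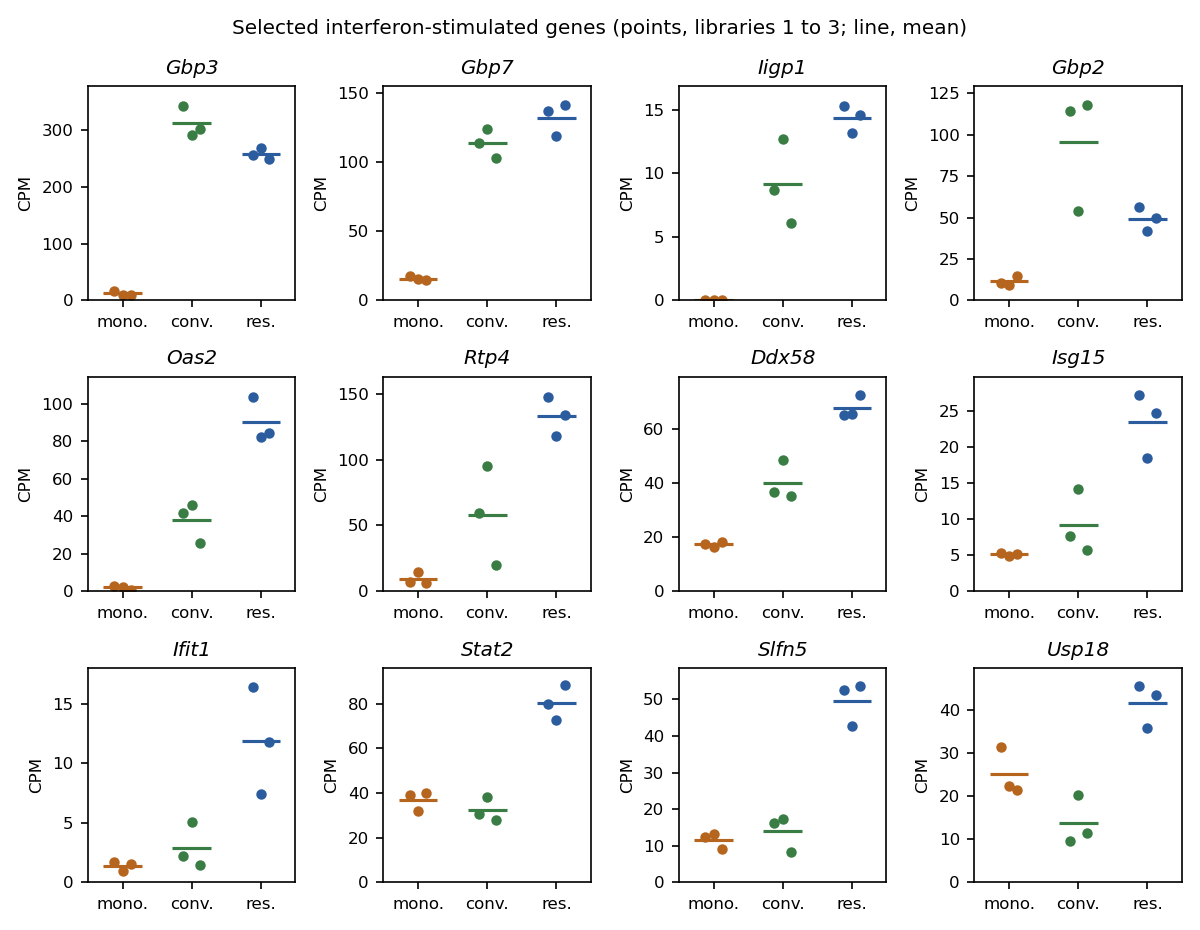
CPM of 12 genes in each library (points, libraries 1 to 3 from left to right) with the group mean as a line, each axis starting at 0; mono., monocyte-derived; conv., converted; res., resident. Gbp3 and Gbp7 are near the same height in converted and resident libraries, Stat2, Slfn5 and Ifit1 are highest in the resident libraries, and Usp18 is lowest in the converted ones.

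The p200 proteins sense DNA. Ifi203 rose from 6.51, 11.3 and 13.1 CPM to 36.8, 42.8 and 25.5 in converted and 52.4, 41.6 and 50 in resident cells (3.41-fold and 4.67-fold, adjusted p = 0.000376 and 9.62e-05). Ifi204 was 1.66-fold higher in resident cells (adjusted p = 0.0152; 0.0544 without resident library 1), with a converted value that was not called (1.18-fold, adjusted p = 0.36). Neither was called between converted and resident cells by edgeR, DESeq2 or limma-voom, 1 of them being at an unadjusted p under 0.05 in edgeR. Of the 50-base stretches of Ifi204, 20% are not unique, so its reads may be split with relatives.

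Samd9l and the Schlafen genes restrict viral protein synthesis. Slfn5 (ENSMUSG00000054404, chr11:82951349-82964840) was at 12.4, 13.2 and 9.06 CPM in monocyte-derived, 16.2, 17.4 and 8.44 in converted and 52.5, 42.7 and 53.5 in the resident libraries. Monocyte-derived and converted values overlapped, and the resident ones stood far above both. Slfn5 was 3.53-fold lower in converted than in resident cells (log2 -1.82 ± 0.25, adjusted p = 0.0041), rose 4.28-fold from monocyte-derived to resident cells (adjusted p = 0.000105) and was not called in converted against monocyte-derived cells (log2 0.28 ± 0.25, adjusted p = 0.392; 0.0349 without converted library 3). Its neighbour Slfn8 went from 9.65, 9.6 and 8.03 CPM to 24.2, 29.2 and 20.5 and to 40.2, 36.5 and 44.8. Slfn8 rose 2.71-fold and 4.45-fold (adjusted p = 4.01e-05 and 2.96e-06) and was 1.64-fold lower in converted than in resident cells (adjusted p = 0.0192; 0.0725 to 0.104 without converted library 1 or 3 or resident library 1 or 3). Samd9l rose 1.77-fold and 2.61-fold (adjusted p = 0.00261 and 0.000112), and between converted and resident cells it was not called by edgeR (adjusted p = 0.0853). It was called lower there by DESeq2 (0.0428), in a fit of both groups alone (0.0227) and without monocyte-derived library 1 (0.0297) or converted library 2 (0.0496).

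Members with and without the response element in the promoter window can be set side by side. Of the 18 tested members with a match, 10 rose in converted cells, and of the 14 with a window and no match, 11 did; the median log2 change was 0.98 in both. In resident cells the medians were 2.12 and 1.69, and between converted and resident cells -0.76 and -0.52. These are descriptions with no test, since members within a cluster are not independent. Members lie close together on the genome, 26 of the 45 in 10 clusters of neighbours within 1 Mb.

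The genes that make, receive and carry the interferon signal were listed separately (44 genes, 32 tested), and they did not move as a block. In converted cells 10 rose and 14 fell, in resident cells 10 rose and 13 fell, and between converted and resident cells 4 were lower and 0 higher (1 higher at an unadjusted p under 0.05 in edgeR, 0 by DESeq2 or limma-voom after adjustment). Of all genes tested, 25.8% rose and 24.9% fell in converted cells, and 25.7% rose and 24.9% fell in resident cells. Between converted and resident cells, 4.26% of all genes were lower and 1.82% higher.

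Of the 11 interferon genes listed, only Ifng passed the filter on low counts, and other interferon genes were not looked up. Ifna1, Ifna2, Ifna4, Ifna5, Ifne, Ifnl2 and Ifnl3 had 0 reads in every library, Ifnb1 had 1 read in a resident library, and Ifnk had 1, 2 and 1 reads and Ifnz 2, 0 and 1 in monocyte-derived, converted and resident libraries. Ifng, made by lymphocytes, had 50 reads in monocyte-derived, 3 in converted and 48 in the resident libraries. It was lower in converted than in monocyte-derived cells (ratio of the reads 0.0543, 95% exact interval 0.0108 to 0.168) and than in resident cells (0.0634, 0.0126 to 0.197). The edgeR test of each difference gave an adjusted p of 0.00332 and 0.0353. The second call was lost with any 1 converted or resident library left out (0.0634 to 0.127).

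Of the 5 receptor chains tested, 4 fell in converted and in resident cells, where 24.9% of all genes tested fell in each. Ifnar1 was at 129.0, 163.8 and 144.8 CPM in monocyte-derived, 53.0, 52.5 and 53.5 in converted and 52.1, 50.1 and 55.5 in the resident libraries. It was 2.75-fold and 2.78-fold lower in converted and resident than in monocyte-derived cells (adjusted p = 1.53e-06 and 1.66e-06). Ifnar2, its partner, was not called in either (log2 -0.08 ± 0.1 and -0.03 ± 0.1). Ifngr1 fell from 578.1, 573.5 and 595.7 CPM to 149.3, 142.3 and 176.1 and to 154.2, 152.2 and 146.7, or 3.74-fold and 3.86-fold (adjusted p = 1.88e-07 and 1.8e-07). Ifngr2 was 2.12-fold and 2.0-fold lower, and Il10rb, shared with interferon lambda and IL-10 receptors, 1.79-fold and 1.76-fold lower. None of the 5 was called between converted and resident cells, with log2 differences of -0.09 to 0.05.

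Of the kinases, Tyk2 was not called in any comparison by edgeR, and neither was Jak1 (converted against monocyte-derived, log2 -0.2 ± 0.08, adjusted p = 0.0539; 0.0488 by limma-voom and 0.0301 without monocyte-derived library 2). Jak2 fell from 357.7, 153.4 and 198.9 CPM to 45.4, 58.6 and 55.0 in converted and 66.5, 67.7 and 75.3 in the resident libraries (4.47-fold and 3.39-fold, adjusted p = 0.00015 and 0.000487). Irf9 rose 1.81-fold in resident cells (adjusted p = 0.000613). In converted cells it was 1.25-fold higher without passing (adjusted p = 0.077; 0.0453 with no filter on low counts and 0.00276 without converted library 3), and the difference between converted and resident cells was not called by edgeR (log2 -0.53, adjusted p = 0.052; 0.017 by DESeq2 and 0.0413 by limma-voom). Irf9 acts with Stat2, described above, in the complex that binds the response element.

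The transcription factor Irf7, which amplifies the type I response and is itself a target of it, was at 8.32, 9.6 and 10.7 CPM in monocyte-derived, 82.2, 129.3 and 52.2 in converted and 316.1, 176.9 and 248.2 in the resident libraries. It rose 9.21-fold and 25.9-fold (adjusted p = 5.49e-05 and 6.74e-06) and was 2.81-fold lower in converted than in resident cells (adjusted p = 0.0234; 0.0548 to 0.0992 without converted library 1 or 3 or resident library 1 or 3, 0.125 with no filter on low counts and 0.0673 in a fit of both groups alone). Its order of libraries within the converted group, library 2 highest and 3 lowest, was that of most members. Irf1 rose 1.44-fold and 2.02-fold (adjusted p = 0.0045 and 8.41e-05) and was 1.4-fold lower in converted than in resident cells (adjusted p = 0.0425; 0.0539 to 0.194 with any 1 converted or resident library left out). Irf8 went the other way, from 66.1, 84.5 and 96.2 CPM to 7.03, 7.83 and 6.98 in converted and 32.2, 28.4 and 41.8 in resident cells, 11.3-fold and 2.41-fold lower than in monocyte-derived cells, and 4.69-fold lower in converted than in resident cells (adjusted p = 0.000601). Irf5 fell 1.89-fold and 1.91-fold, and Irf3 was not called.

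**Figure D5:**
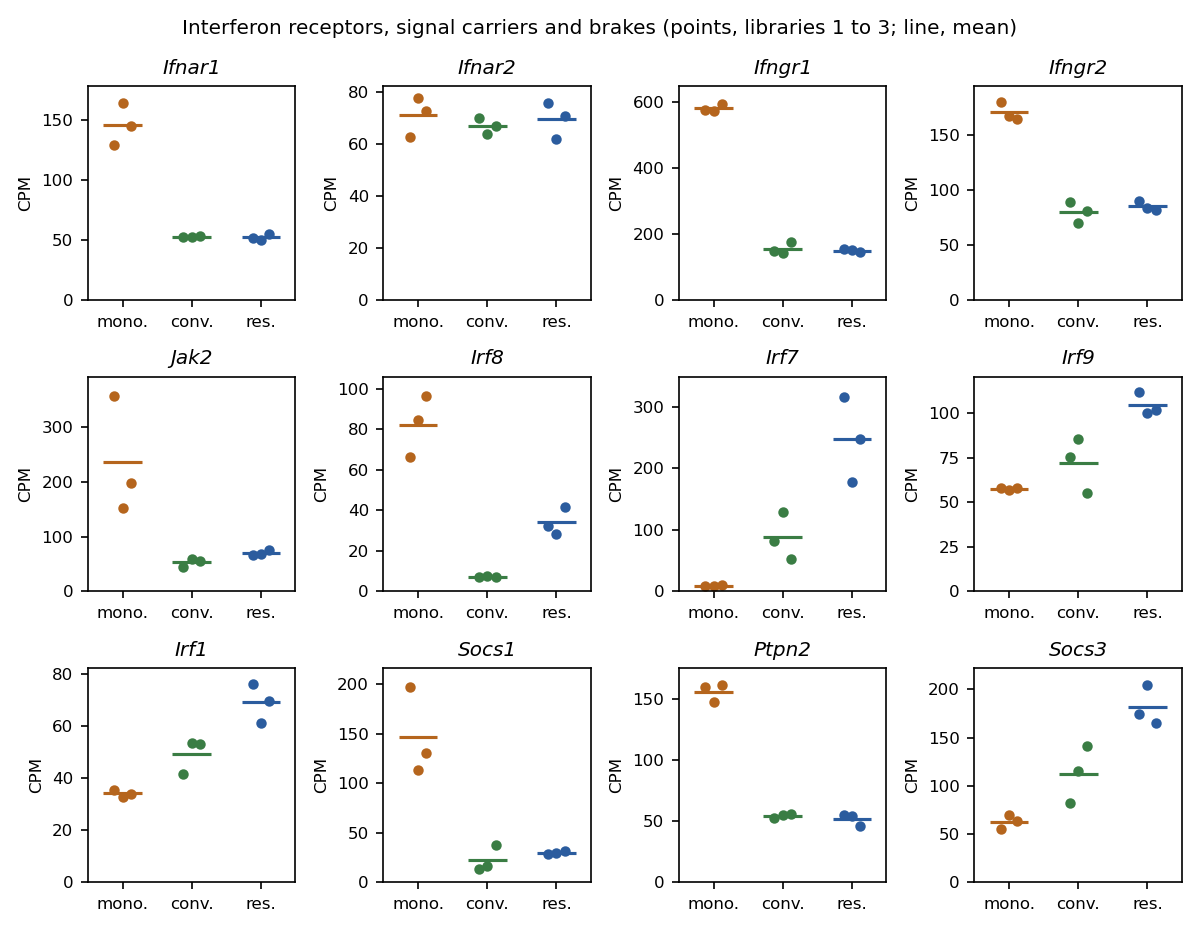
CPM of 12 receptor, signal and brake genes in each library (points) with the group mean (line), each axis from 0; mono., monocyte-derived; conv., converted; res., resident. Ifnar1, Ifngr1, Ifngr2, Jak2, Irf8, Socs1 and Ptpn2 are highest in monocyte-derived libraries, while Irf7, Irf9, Irf1 and Socs3 have their highest mean in the resident ones.

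Sensing adaptors and brakes were mixed. Tmem173, which encodes the adaptor STING, fell 6.6-fold in converted and 4.32-fold in resident cells (adjusted p = 2.86e-05 and 0.000118), and Ikbke, Trim25 and Myd88 also fell in both. Cgas, the DNA sensor upstream of STING, rose 2.12-fold and 1.53-fold (adjusted p = 0.00179 and 0.0334), the second lost without monocyte-derived library 1 or 2 or resident library 1 or 2 (0.0784 to 0.0939). Tlr3 rose 2.41-fold and 2.59-fold (adjusted p = 0.0189 and 0.013), the first lost without converted library 1 (0.0591) and in a fit of both groups alone (0.0517). Among the brakes, Socs1 fell from 196.8, 113.9 and 130.1 CPM to 13.1, 16.3 and 37.8 in converted and 28.7, 29.2 and 31.2 in the resident libraries (6.58-fold and 4.95-fold, adjusted p = 0.000241 and 0.000588). The phosphatase Ptpn2 fell 2.86-fold and 3.01-fold. Socs3 rose 1.79-fold and 2.88-fold (adjusted p = 0.00342 and 9.76e-05), the repressor Irf2 1.55-fold and 2.23-fold (adjusted p = 0.00702 and 0.000203), and Pias1 and Ptpn6 rose by at most 1.26-fold. The call of Ptpn6 in resident cells (adjusted p = 0.0201) was lost with any 1 resident library left out (0.0522 to 0.0583). Apart from Ifng, Irf1, Irf7 and Irf8, no gene of this list was called between converted and resident cells by edgeR, where DESeq2 called 7 and limma-voom 6.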

How the data were processed

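Raw read counts per gene were deposited by the authors for 9 libraries of sorted peritoneal macrophages. Per the submitters' processing notes, TopHat2 2.1.0 and HTSeq were used with mouse build GRCm38; no source used here gives the annotation, strand setting or filters. Lines naming no gene (no feature 4.02 to 5.66%, ambiguous 4.47 to 4.68%) were left out. Symbols came from GENCODE M21, which matched 47310 of 47729 identifiers. Genes with enough counts (filterByExpr, minimum count 10, minimum total 15) were fitted with edgeR 4.0.16 in R 4.3.3, using TMM and the robust quasi-likelihood test over all 9 libraries, which leaves 6 residual degrees of freedom, and adjusted over the 13223 genes tested. The method was tested on simulated data. Alternatives were DESeq2 1.42.0, limma-voom 3.58.1, DESeq2 size factors, no filter, the groups compared alone, a replicate block, a 2-fold minimum, the B-cell sum as a covariate and each library left out.

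The 45 genes, the pathway and marker lists and the tests were chosen with earlier results of these data known. Values in every library were planned for members that had the largest or smallest change of their role group in a comparison. They were also planned for members that changed direction, differed between converted and resident cells or were not tested. Some members that met this rule are given without them, among them Dhx58, Dtx3l, Parp14, Isg20, Bst2 and Ifi204. In the pathway list, ligands were named by reads and receptors, kinases, STATs and IRFs when called. Sensing and brake genes, pathway genes named as not called, and members given in full outside this rule were picked after their values were seen. Promoter windows came from RefSeq GRCm38.p6. Uniqueness was the share of a gene's 50-base exon stretches found in no other annotated exon. A gene of the pathway list is counted in its totals but not reported here by name.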

Additional observations from a re-analysis of the deposited data

How the results depend on the processing

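Of the 30 interferon-stimulated genes called in converted against monocyte-derived cells, 26 kept their call with each library left out and 26 under every planned fit other than the B-cell covariate. Of the 44 called in resident cells, 40 and 42 did, and of the 18 called between converted and resident cells, 3 and 9. Leaving out 1 library gave 27 to 35, 40 to 44 and 3 to 27 calls for the members in these comparisons, and 22 to 25, 21 to 23 and 1 to 7 for the pathway genes. Over all genes tested, the same fits called 43.2% to 50.4%, 41.7% to 50.6% and 1.81% to 12%. With all libraries these shares were 50.7%, 50.7% and 6.07%. The pathway count between converted and resident cells was 7 without monocyte-derived library 1, 1 without converted library 1, resident library 1 or resident library 3, and 2 without converted library 3 or resident library 2, against 4 with all libraries. It was 7 by DESeq2 and 10 with only the groups compared in the fit, where 8.34% and 16.2% of all genes tested were called. With a 2-fold minimum, 10 members were called between converted and resident cells, and 14 pathway genes in converted and 14 in resident against monocyte-derived cells. The causes were not tested, other than the stricter rule.

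Same-numbered libraries had correlations of -0.0939 to 0.0651 in their deviations from the group means, and differently numbered ones -0.089 to 0.106. With 3 libraries per group these values cannot decide whether the numbers pair the libraries, and no label says that they do. With the replicate block the fit called 11 members between converted and resident cells (10 lower and 1 higher) in place of 18. It called 30 in converted and 43 in resident against monocyte-derived cells. Over all genes tested the shares called were 4.01%, 47.5% and 47.9%, against 6.07%, 50.7% and 50.7% without the block.

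With the B-cell sum as a covariate, 5, 1 and 0 members and 9, 0 and 0 pathway genes were called (unadjusted p under 0.05 for 11, 5 and 2 members and 15, 7 and 4 pathway genes). Log2 changes whose sign turned were, in converted against monocyte-derived cells, Eif2ak2 -0.17, Irgm1 -0.07, Isg15 -0.22, Zbp1 -0.20 and Tlr3 -0.03. In resident against monocyte-derived cells they were Cmpk2 -0.82, Eif2ak2 -1.22, Herc6 -0.24, Ifi203 -0.50, Ifi204 -0.99, Ifi44 -2.71, Ifit1 -0.16, Ifit2 -2.86, Irgm1 -0.10, Isg15 -0.35, Oasl1 -0.61, Oasl2 -0.36, Rsad2 -2.65, Samd9l -0.67, Stat2 -0.07, Trim30a -0.38, Usp18 -0.34, Zbp1 -0.47, Cgas -1.81, Tlr3 -2.10, Ifngr2 0.00 and Myd88 0.25. In converted against resident cells they were Ddx58 0.07, Dtx3l 0.00, Irgm1 0.03, Isg15 0.13, Parp14 0.05, Zbp1 0.27, Ifng 0.42 and Irf7 0.13. None of these passed with the covariate. The cause was not tested. Depth limits Ifit3, Ifit3b, Mx2, Ifi44, Iigp1 in monocyte-derived cells and the interferon genes, which had few reads.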
